A study of Mus musculus with 4 samples.

Results

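A set of 10 genes of inflammatory cytokines and of the feedback that limits NF-kB signalling were followed in bulk RNA sequencing of microglia, the resident macrophages of the brain, taken from mouse cerebral cortex on embryonic day 16. The 10 genes were chosen by symbol, with earlier results of these data known. They are the cytokine genes Il1a, Il1b, Tnf, Il6 and Il10, the feedback genes Nfkbia, Nfkbiz, Tnfaip3 and Zfp36, and the receptor-level inhibitor gene Sigirr. Of these, 9 were listed among the 21981 genes of the deposited tables, and Il10 was listed in none of the 4. Libraries cKO 2 and cKO 5 carried the genotype label Bach1 cKO, a conditional knockout of Bach1 whose driver the series text names only as Cx3. The libraries control 1 and control 6 carried the label Bach1 fl/fl, the floxed allele with no deletion stated. All 4 were untreated. Bach1 encodes a heme-binding transcriptional repressor. The series text gives triplicates, and libraries beyond these 4 were not analysed here. The labels do not say whether each library is a separate animal or a pool, so p-values measure only the spread between these samples. The sources used here do not say how the microglia were isolated.

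Interleukin 1 and tumor necrosis factor bind receptors on macrophages and other cells and release NF-kB, a transcription factor held in the cytoplasm by inhibitor of kB proteins. NF-kB then switches on further cytokine genes together with its own inhibitors, so that a response is cut short. Among these inhibitors, the IkB-alpha protein of Nfkbia recaptures NF-kB and the A20 protein of Tnfaip3 edits ubiquitin chains on upstream signalling proteins. The tristetraprolin protein of Zfp36 destroys cytokine mRNAs that carry AU-rich elements. The IkB-zeta protein of Nfkbiz works in the nucleus, where it is known to help as well as to limit NF-kB target genes. Sigirr encodes a receptor relative that damps signalling through interleukin 1 receptors and Toll-like receptors. In the healthy brain, microglia are a main source of interleukin 1 and tumor necrosis factor.

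The libraries held 17233115 to 19305078 reads, and 3 reads corresponded to 0.155 to 0.174 CPM (reads of a gene scaled to a common library total), limits that cover counting error only. The count of Bach1 itself was 29.98 CPM in library cKO 2 and 35.4 CPM in library cKO 5, against 45.8 CPM in control 1 and 21.6 CPM in control 6, and a count over the whole gene does not check a deletion of part of it. All 22 microglia markers examined had reads in every library, with Csf1r, the receptor that microglia need to survive, at 1936 and 6621 CPM in the cKO libraries and 5365 and 7212 CPM in the controls. Cx3cr1, another of these markers, lay lower in both cKO libraries, at 747 and 2756 CPM, than in the controls, at 4333 and 5158 CPM. Its log2 fold change of cKO over control was −1.43 ± 0.94 (SE; edgeR, adjusted p = 0.9997). Scaled on the 22 markers, Cx3cr1 among them, it was −0.99 ± 0.52 (SE) and the groups stayed apart. The series text names the knockout driver only as Cx3, and the part of the driver in the Cx3cr1 values was not tested. On the scale set by these markers, 6 of the 22 lay lower in both cKO libraries than in both controls and 7 higher. Of all genes tested, 1.22% lay lower and 12.1% higher on that scale. Summed over the list, microglia markers came to 11835 CPM in cKO 2 and 45454 CPM in cKO 5, against 32096 CPM in control 1 and 50757 CPM in control 6. Markers of cortical excitatory neurons, 10 of 10 detected in every library, summed to 3454 and 274 CPM in the cKO libraries and 1023 and 309.7 CPM in the controls. Markers of border-associated macrophages, which line the meninges and vessels, summed to 405 and 1823 CPM in cKO and 947 and 1209.8 CPM in control, with Cd163 at 0 reads in control 6. Library cKO 2 therefore stood apart, with the lowest macrophage and the highest neuronal values, and the members and gene lists are also given without it or on a scale set by the microglia markers. In bulk samples, fewer cells of a type and less RNA per cell cannot be told apart.

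Across the whole set, no gene passed the test between genotypes. At an adjusted p under 0.05 in edgeR's quasi-likelihood test, 0 of 8 tested members were called, where 0% of 15951 genes tested were called. At an unadjusted p under 0.05 there were again 0 members, against 0.307% of all genes, or 49 genes. DESeq2 and limma-trend also called 0 genes after adjustment, with 74 and 54 genes at an unadjusted p under 0.05. All 8 tested members had a log2 fold change of cKO over control below 0, from −1.12 to −0.02 with a median of −0.42, where 47.2% of all genes lay below 0 and the median of all genes was 0.03. Scaled on the microglia markers in place of all genes, 7 of the 8 turned positive and the members' median became 0.23, while the median of all genes moved to 1.15. Without cKO 2, Il1a, Il1b and Tnf turned positive and the other 5 tested members stayed negative. All 22 microglia markers had negative fold changes too, with a median of −0.48, and their part in the members' values was not tested.

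The tested cytokine genes overlapped between the genotypes, with cKO 5 above and cKO 2 below both controls. Il1a (ENSMUSG00000027399, chromosome 2, 129299610 to 129309972, minus strand, GRCm38), which encodes interleukin 1 alpha, had 321 reads (18.5 CPM) in cKO 2 and 1311 reads (67.9 CPM) in cKO 5, against 739 reads (42.3 CPM) in control 1 and 968 reads (56.2 CPM) in control 6. The cKO libraries were the lowest and the highest of the 4, so the groups overlapped. The mean was 43.2 ± 34.9 CPM in cKO and 49.2 ± 9.81 CPM in control (SD, n = 2 each), and a log2 fold change of −0.18 ± 0.79 (SE) did not pass the test (edgeR, adjusted p = 0.9997). Tnf (ENSMUSG00000024401, chromosome 17, 35199381 to 35202007, minus strand), the tumor necrosis factor gene, had 33 reads (1.91 CPM) in cKO 2 and 161 reads (8.34 CPM) in cKO 5, against 80 reads (4.58 CPM) in control 1 and 102 reads (5.92 CPM) in control 6. Again cKO 5 was highest and cKO 2 lowest. The log2 fold change of Tnf was −0.02 ± 0.98 (SE), and the adjusted p was 0.9997 in edgeR. Il1b (ENSMUSG00000027398, chromosome 2, 129364570 to 129371139, minus strand), which encodes interleukin 1 beta, was scarce, with 6 reads (0.347 CPM) in cKO 2 and 37 reads (1.92 CPM) in cKO 5, against 20 reads (1.14 CPM) in control 1 and 27 reads (1.57 CPM) in control 6. The exact Poisson 95% interval was 0.127 to 0.754 CPM in cKO 2 and 1.35 to 2.64 CPM in cKO 5, so the cKO libraries differed from each other beyond counting error, whereas the control intervals, 0.699 to 1.77 and 1.03 to 2.28 CPM, overlapped. The log2 fold change of Il1b, −0.24 ± 1.22 (SE), did not pass either (edgeR, adjusted p = 0.9997). Without cKO 2 the log2 fold changes of Il1a, Il1b and Tnf were 0.56, 0.59 and 0.77, and without control 6 they were 0.14, 0.10 and 0.27, so the sign of all 3 depended on a single library.

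**Figure D1:**
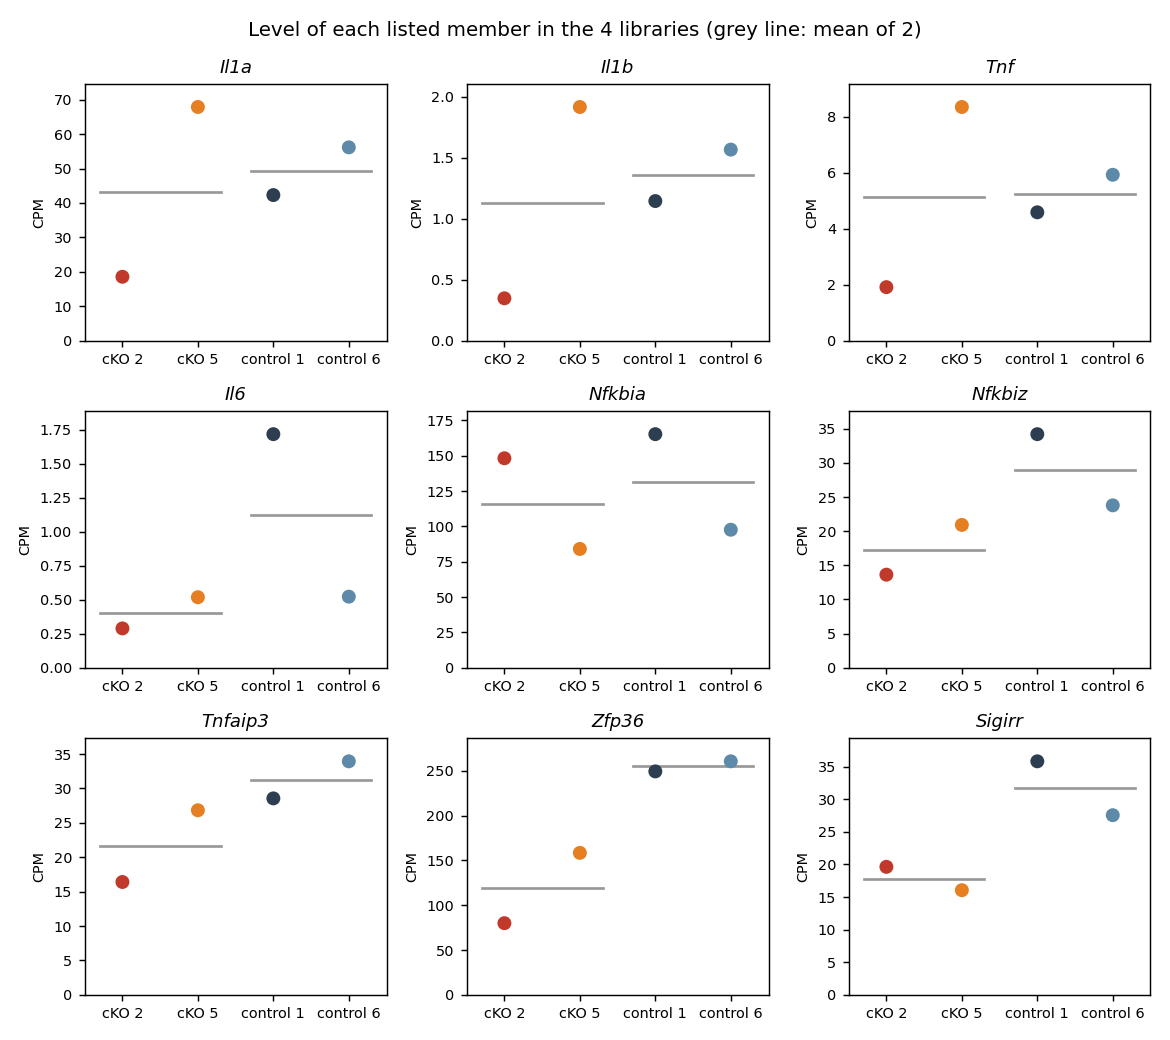
CPM (y axis, starting at 0, own scale for each gene) of the 9 listed members in libraries cKO 2, cKO 5, control 1 and control 6 (x axis), with a grey line at the mean of each genotype. Il1a, Il1b and Tnf were lowest in cKO 2 and highest in cKO 5, while Zfp36 was at 79.95 and 158 CPM in cKO and 249.2 and 260 CPM in control.

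Il1a and Tnf stood in nearly the same proportion in every library. There were 9.73 Il1a reads per Tnf read in cKO 2 and 8.14 in cKO 5, against 9.24 in control 1 and 9.49 in control 6. Tnf made up 9.32% of the summed reads of this pair in cKO 2 (Clopper-Pearson 95% interval 6.50% to 12.8%) and 10.9% in cKO 5 (9.39% to 12.6%), against 9.77% in control 1 (7.82% to 12.01%) and 9.53% in control 6 (7.84% to 11.5%), and all intervals overlapped. Il1a reads per Il1b read came to 53.5 in cKO 2 and 35.4 in cKO 5, against 36.95 in control 1 and 35.9 in control 6, where the value of cKO 2 rests on 6 Il1b reads. All 3 genes followed the order cKO 5, control 6, control 1, cKO 2 from high to low, the order in which the summed markers of border-associated macrophages, of monocytes and neutrophils and of lymphocytes also stood. The monocyte and neutrophil markers, for example, summed to 72.1 and 255 CPM in cKO 2 and cKO 5 and to 135 and 195 CPM in control 1 and control 6. The part of these cells in the cytokine values was not tested. Per 1000 reads of the 10 border-associated macrophage markers, Tnf had 4.71 and 4.57 reads in the cKO libraries and 4.83 and 4.89 reads in the controls. On the same denominator, Il1a had 45.8 and 37.3 reads in cKO 2 and cKO 5 and 44.6 and 46.4 reads in the controls, and Il1b had 0.856 and 1.05 reads in the cKO libraries and 1.21 and 1.295 reads in the controls, so these ratios were less even than that of Tnf. Per 1000 reads of the 22 microglia markers, Tnf had 0.161 and 0.183 reads in cKO against 0.143 and 0.117 reads in control, and Il1a had 1.57 and 1.49 reads in cKO against 1.32 and 1.11 reads in control.

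Il6 was close to the limit of what these libraries resolve, and Il10 was not listed. Il6 (ENSMUSG00000025746, chromosome 5, 30013114 to 30019981, plus strand), the interleukin 6 gene, had 5 reads (0.289 CPM) in cKO 2 and 10 reads (0.518 CPM) in cKO 5, against 30 reads (1.72 CPM) in control 1 and 9 reads (0.522 CPM) in control 6. It did not pass the filter on low counts and was not tested. Its high value came from control 1, where the exact Poisson 95% interval of 1.16 to 2.45 CPM lay above those of cKO 2 (0.0938 to 0.674 CPM), cKO 5 (0.248 to 0.953 CPM) and control 6 (0.239 to 0.991 CPM). Library control 1 was also the highest in endothelial markers, which summed to 2811 and 370 CPM in cKO 2 and cKO 5 and to 3577 and 666 CPM in control 1 and control 6, and their part in the Il6 value was not tested. Il10, the gene of the anti-inflammatory interleukin 10, has no value here. Genes left out of a table whose counts are known from the other tables had at most 4 reads over the pair of libraries concerned.

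Most of the feedback genes and Sigirr had lower values in both cKO libraries, and none passed the test. On CPM, 4 of the 8 tested members (Zfp36, Nfkbiz, Tnfaip3 and Sigirr) lay lower in both cKO libraries than in both controls, where 6.57% of all genes tested did so. The untested Il6 also did, by 0.518 CPM in cKO 5 against 0.522 CPM in control 6, which is within counting error. Scaled on the microglia markers, 0 of the 8 did so, where 1.22% of all genes did. On TMM-scaled CPM (a factor per library from all genes), Tnfaip3 overlapped, so that 3 of the 8 tested members remained, where 7.64% of all genes stood apart in this direction. The same 3 remained with RLE factors (7.44% of all genes lower, 8.51% higher) and with DESeq2 size factors (7.44% lower, 8.51% higher), and on TMM-scaled CPM 0 of the 8 lay higher in both cKO libraries, against 8.33% of all genes.

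With TMM factors, Zfp36 had the largest fold change of the tested members. Zfp36 (ENSMUSG00000044786, chromosome 7, 28376784 to 28380253, minus strand) had 1384 reads (79.95 CPM) in cKO 2 and 3057 reads (158 CPM) in cKO 5, against 4354 reads (249.2 CPM) in control 1 and 4488 reads (260 CPM) in control 6. The controls were close to each other, and the cKO libraries were both lower and further apart. The mean was 119 ± 55.4 CPM in cKO and 255 ± 7.95 CPM in control (SD, n = 2 each), a ratio of 0.468. The log2 fold change was −1.12 ± 0.54 (SE); in edgeR the unadjusted p was 0.102 and the adjusted p 0.9997. Without cKO 2 the log2 fold change was −0.58, and without cKO 5 it was −1.93. On the microglia marker scale the values overlapped, at 196 and 109 scaled CPM in cKO and 239 and 162 scaled CPM in control, with a log2 fold change of −0.40 ± 0.98 (SE).

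The AU-rich sites that tristetraprolin is known to bind were looked up in the 3′ untranslated regions of all 10 genes, since the Tnf mRNA is a known target of the Zfp36 protein. The 7 letters TATTTAT, searched on the mRNA strand only, were found in 8 of the 10, with Nfkbiz and Sigirr holding none. Among all untranslated regions of a length like each member's, the share holding them ran from 4.7% for Sigirr to 38.7% for Tnfaip3. It was 27.9% for Il1a and 11.8% for Il1b. Tnf held 8 copies in 764 bases, where 19.5% of untranslated regions of like length held 1 or more, and Zfp36 itself held 3 in 774 bases, where 19.8% did. For 5 of the 8 members that held TATTTAT, the 30 bases richest in TTATTTATT, then in ATTTA, then in A and T are shown. These sites were read from the GENCODE M21 transcripts (GRCm38), with each ATTTA in capitals. They lie at chr17:35199679-35199708 for Tnf, chr2:129300097-129300126 for Il1a, chr2:129364803-129364832 for Il1b, chr7:28376956-28376985 for Zfp36 and chr10:19001754-19001783 for Tnfaip3, all on the minus strand.
Tnf: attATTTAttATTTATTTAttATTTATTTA
Il1a: tATTTAtaaatatATTTAtgataattatat
Il1b: acttacctATTTATTTAtgtATTTAttgat
Zfp36: tttATTTAtgacgactttATTTAttgtatt
Tnfaip3: tttATTTAttatgaacttccaagttATTTA
The Tnf site held 5 overlapping or adjoining ATTTA copies, the Il1b site 3 and the sites of Il1a, Zfp36 and Tnfaip3 2 each. A match describes the letters and shows no binding in these cells.

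Nfkbiz and Tnfaip3 had smaller differences. Nfkbiz (ENSMUSG00000035356, chromosome 16, 55811375 to 55838899, minus strand) had 236 reads (13.6 CPM) in cKO 2 and 404 reads (20.9 CPM) in cKO 5, against 598 reads (34.2 CPM) in control 1 and 410 reads (23.8 CPM) in control 6. Both cKO values were below both control values, but cKO 5 and control 6 differed by only a few CPM. The log2 fold change of Nfkbiz was −0.77 ± 0.48 (SE; edgeR, adjusted p = 0.9997), and −0.35 without cKO 2. Tnfaip3 (ENSMUSG00000019850, chromosome 10, 19000910 to 19015657, minus strand) had 284 reads (16.4 CPM) in cKO 2 and 518 reads (26.8 CPM) in cKO 5, against 499 reads (28.6 CPM) in control 1 and 585 reads (33.9 CPM) in control 6. Here cKO 2 was low and the other libraries lay close together. The log2 fold change of Tnfaip3 was −0.57 ± 0.49 (SE; edgeR, adjusted p = 0.9997), and −0.12 without cKO 2. On the microglia marker scale, both genes overlapped between genotypes, with log2 fold changes of 0.00 ± 1.25 for Nfkbiz and 0.27 ± 1.20 for Tnfaip3 (SE).

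Nfkbia was arranged differently from the other feedback genes. Nfkbia (ENSMUSG00000021025, chromosome 12, 55489410 to 55492647, minus strand) had 2565 reads (148 CPM) in cKO 2 and 1622 reads (84.0 CPM) in cKO 5, against 2887 reads (165 CPM) in control 1 and 1682 reads (97.6 CPM) in control 6. It was high in cKO 2 and control 1, the libraries richer in neuronal and endothelial markers, and low in cKO 5 and control 6. The mean was 116 ± 45.4 CPM in cKO and 131 ± 47.8 CPM in control (SD, n = 2 each), and the log2 fold change was −0.27 ± 0.39 (SE; edgeR, adjusted p = 0.9997). It was 0.032 without control 1 and 0.94 ± 1.22 (SE) on the microglia marker scale, both of the other sign. Of the summed reads of Zfp36 and Nfkbia, Zfp36 made up 35.0% in cKO 2 and 65.3% in cKO 5, against 60.1% in control 1 and 72.7% in control 6. Per 1000 reads of the microglia markers, Nfkbia had 12.5 reads in cKO 2 and 1.85 in cKO 5, against 5.15 in control 1 and 1.92 in control 6. The part of cell types other than microglia in the Nfkbia level was not tested.

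The promoters of Tnfaip3, Nfkbia and Il1a are shown because these genes had 3 different arrangements over the libraries. RefSeq windows (GRCm38.p6) from 250 bases before to 50 bases after the annotated start were at hand for 7 of the 10 members. Motifs were searched on both strands, and capitals mark the kB consensus of NF-kB and the AP-1 letters TGACTCA. The kB consensus was found in 8.5% of all 32851 windows and TGACTCA in 5.2%. The windows are chr10:19015361-19015660 for Tnfaip3, chr12:55492598-55492897 for Nfkbia and chr2:129309923-129310222 for Il1a, each read on the minus strand.
Tnfaip3: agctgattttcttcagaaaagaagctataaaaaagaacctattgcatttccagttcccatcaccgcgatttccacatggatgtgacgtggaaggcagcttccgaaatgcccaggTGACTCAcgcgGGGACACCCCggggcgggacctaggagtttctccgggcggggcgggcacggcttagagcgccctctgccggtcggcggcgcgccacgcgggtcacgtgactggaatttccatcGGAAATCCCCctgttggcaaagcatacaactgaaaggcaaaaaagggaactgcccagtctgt
Nfkbia: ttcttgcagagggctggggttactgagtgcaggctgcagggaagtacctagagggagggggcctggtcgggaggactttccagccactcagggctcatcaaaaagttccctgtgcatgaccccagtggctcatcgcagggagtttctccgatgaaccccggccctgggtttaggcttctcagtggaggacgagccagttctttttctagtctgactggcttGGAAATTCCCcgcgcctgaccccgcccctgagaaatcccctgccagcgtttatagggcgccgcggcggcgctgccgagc
Il1a: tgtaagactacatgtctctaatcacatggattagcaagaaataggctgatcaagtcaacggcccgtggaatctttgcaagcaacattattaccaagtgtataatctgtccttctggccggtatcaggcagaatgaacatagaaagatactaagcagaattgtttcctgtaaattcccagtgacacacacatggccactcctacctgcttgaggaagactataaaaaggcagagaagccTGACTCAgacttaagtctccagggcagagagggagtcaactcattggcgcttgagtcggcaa
Tnfaip3 held TGACTCA at −136 to −130 and 3 kB matches, of which 2 were the same 10 bases at −125 to −116 read on both strands and the other lay at −12 to −3. Nfkbia held a kB match at −29 to −20 and, at −13 to −5, the letters TGACNNNGC of the antioxidant response element, which 12.4% of windows held. Il1a held TGACTCA at −12 to −6 and no kB match. A further Tnfaip3 window, at another annotated start, held neither. The Il6 window held both motifs, and those of Il1b, Tnf and Zfp36 held neither, which says only that the letters are not in these 300 bases.

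Sigirr was low in both cKO libraries alike. Sigirr (ENSMUSG00000025494, chromosome 7, 141091175 to 141100572, minus strand) had 340 reads (19.6 CPM) in cKO 2 and 310 reads (16.1 CPM) in cKO 5, against 626 reads (35.8 CPM) in control 1 and 475 reads (27.6 CPM) in control 6. Unlike the other members with separate groups, its lower cKO value was that of cKO 5, the library rich in microglia markers. The mean was 17.8 ± 2.53 CPM in cKO and 31.7 ± 5.84 CPM in control (SD, n = 2 each), a ratio of 0.563. Its log2 fold change was −0.90 ± 0.34 (SE); in edgeR the unadjusted p was 0.0502 and the adjusted p 0.9997, and it ran from −1.01 to −0.81 when each library was left out. On the microglia marker scale it was 48.0 and 11.02 scaled CPM in cKO and 34.3 and 17.1 scaled CPM in control, so the groups overlapped there and the log2 fold change was 0.20 ± 1.298 (SE).

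**Figure D2:**
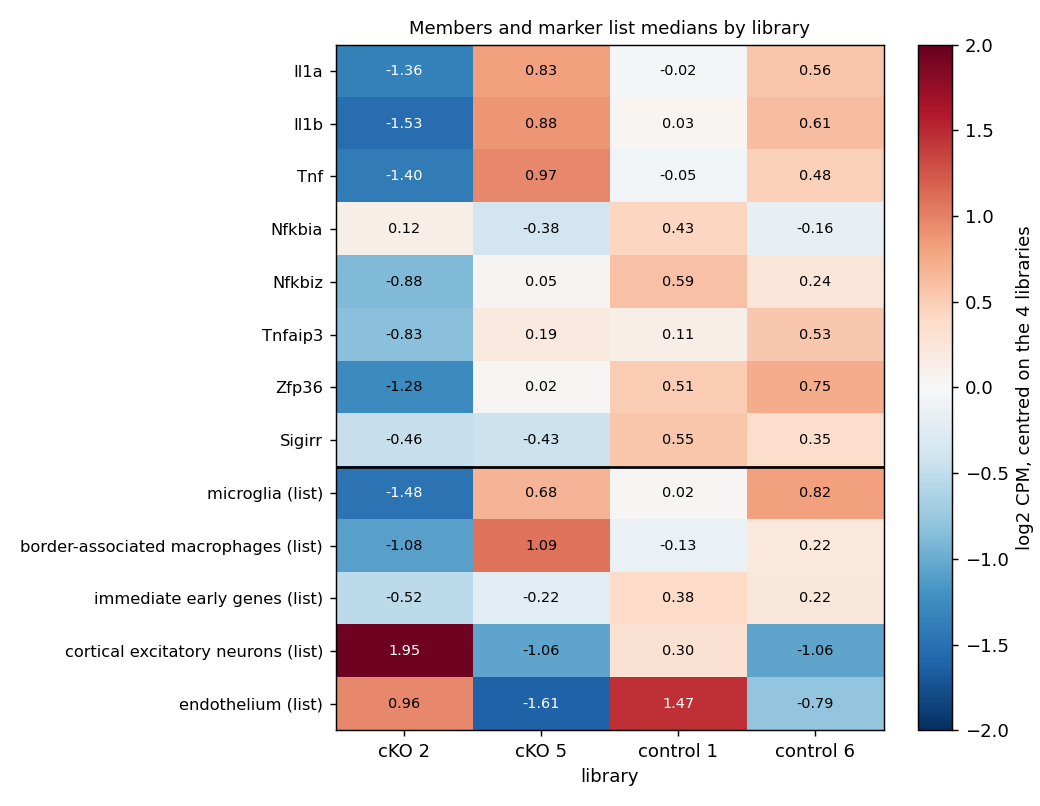
Log2 CPM of the 8 tested members minus the mean of the 4 libraries (rows above the line), and the median of the same quantity over 5 gene lists (rows below it), in each library (columns); red is above and blue below the mean. Il1a, Il1b and Tnf, like the macrophage lists, are low in cKO 2 and high in cKO 5, from −1.53 to −1.36 in cKO 2 and from 0.83 to 0.97 in cKO 5, while Sigirr is at −0.46 and −0.43 in the cKO libraries and 0.55 and 0.35 in the controls.

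Levels between the members were compared per kilobase of exon, from GENCODE M21 gene models. Nfkbia had the highest level in cKO 2, cKO 5 and control 1, at 92.0, 52.2 and 103 CPM per kilobase, while Zfp36 was highest in control 6, at 75.1 against 60.6 CPM per kilobase for Nfkbia. The exon length used for Zfp36, 3470 bases, is its whole gene span, so its level per kilobase may be too low. On plain CPM, Zfp36 lay above Nfkbia in cKO 5 (158 against 84.0 CPM) and in control 1 (249.2 against 165 CPM). The order of Nfkbia and Zfp36 therefore depends on the length used. Il1a was the most abundant cytokine, at 9.39 and 34.4 CPM per kilobase in the cKO libraries and 21.4 and 28.5 CPM per kilobase in the controls. Tnf followed at 1.16 and 5.09 CPM per kilobase in cKO and 2.79 and 3.61 CPM per kilobase in control. Il1b was at 0.182 and 1.01 CPM per kilobase in cKO and 0.6002 and 0.822 CPM per kilobase in control. Exons of Il1a, Il1b and Zfp36 overlap the annotated transcripts Gm14023, Il1bos and Gm44710 on the other strand. Whether counting used strand is not given, so reads of a gene and its antisense partner cannot be told apart, and reads left uncounted in the overlap are not known. The antisense transcripts were themselves given at most 54, 7 and 8 reads in any library, and in cKO 2 the 7 reads of Il1bos exceeded the 6 of Il1b.

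The same 9 genes could be read in each pair of libraries from the fold changes that the authors deposited. In the authors' deposited table of cKO 2 against control 1, 6 of 9 members were called lower, where 11.6% of the table was, and in that of cKO 2 against control 6, 5 of 9 were, where 13.4% of the table was. In the authors' deposited table of cKO 5 against control 1, 2 of 9 (Il6 and Sigirr) were called lower, where 26.0% of the table was, and in that of cKO 5 against control 6, 0 of 9 were, where 11.4% of the table was. No member was called higher in any of them, where 20%, 33.7%, 8.79% and 9.23% of the tables were in the same order. Each table compares single libraries and shares them with the others, so these calls compare libraries and not genotypes. Libraries cKO 5 and control 6 were the richest in microglia markers, at 45454 CPM in cKO 5 and 50757 CPM in control 6, while those of border-associated macrophages stood at 1823 CPM in cKO 5 and 1209.8 CPM in control 6. In the authors' deposited table of that pair, the ratio of cKO 5 to control 6 was 0.608 for Zfp36, 0.583 for Sigirr, 0.790 for Tnfaip3, 0.861 for Nfkbia and 0.880 for Nfkbiz. The same authors' deposited table gave ratios of 1.21 for Il1a, 1.22 for Il1b, 1.41 for Tnf and 0.992 for Il6.

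**Figure D3:**
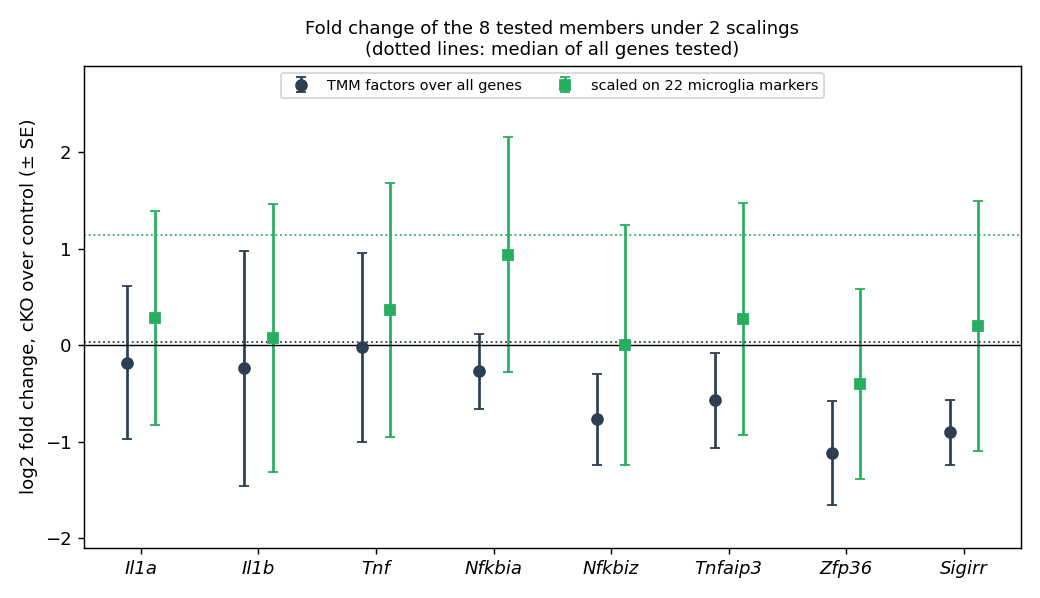
Log2 fold change of cKO over control with its SE (y axis) for the 8 tested members (x axis), from edgeR with TMM factors over all genes (circles) and scaled on 22 microglia markers (squares); dotted lines give the median of all genes, 0.03 and 1.15. With TMM factors all 8 members are below 0, and on the marker scale Zfp36 alone is, while all 8 stay below the median of all genes.

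The other genes of the pathway, in lists chosen with earlier results of these data known, had mostly negative fold changes with TMM factors and a positive median on the microglia marker scale, and none passed the test. The median of each list also moved with single libraries, and its values without cKO 2 and without cKO 5 are given beside it. Of 73 tested genes in 5 NF-kB and cytokine lists, 0 passed an adjusted p of 0.05 in edgeR in either direction and 0 an unadjusted p of 0.05, while 61 had negative and 12 positive fold changes with a median of −0.40. Of all genes tested in edgeR, 0.307% had an unadjusted p under 0.05 and 47.2% had negative fold changes. On CPM, 13 of the 73 lay lower in both cKO libraries than in both controls and 3 higher, against 6.57% and 9.31% of all genes. Scaled on the microglia markers their median was 0.46, against 1.15 for all genes.

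Among cytokine receptors and processing genes, 16 of 17 had negative fold changes, with a median of −0.42. The median was 0.13 without cKO 2, −1.69 without cKO 5, −0.24 without control 6 and −0.64 without control 1, and 0.16 on the microglia marker scale. Nlrp3, the sensor of the inflammasome that matures interleukin 1 beta, had 1.68 and 8.03 CPM in the cKO libraries, against 8.93 and 13.7 CPM in the controls, a log2 fold change of −1.21 ± 1.00 (SE). Il6st, the shared signalling receptor of the interleukin 6 family, had 80.01 and 145 CPM in the cKO libraries, against 176 and 156 CPM in the controls. Tgfb1 had 2.14 and 5.65 CPM in the cKO libraries, against 4.01 and 10.9 CPM in the controls. Nlrp3 and Il6st thus had both cKO values under both control values on CPM, with Nlrp3 overlapping on TMM-scaled CPM, and Tgfb1 overlapped.

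The NF-kB subunit genes had 4 of 5 negative fold changes and a median of −0.35. That median was 0.13 without cKO 2, −1.19 without cKO 5, −0.16 without control 6 and −0.63 without control 1, and 0.34 on the marker scale. Rel, the subunit prominent in immune cells, had 8.20 and 31.6 CPM in the cKO libraries, against 29.5 and 36.2 CPM in the controls, and Nfkb1 and Nfkb2 had log2 fold changes of −0.35 and −0.26. Adaptors and kinases that activate NF-kB had 14 of 18 negative values and a median of −0.20, against 0.05 without cKO 2, −0.50 without cKO 5, −0.03 without control 6, −0.39 without control 1 and 0.69 on the marker scale. Their member Rnf31, which builds linear ubiquitin chains, had 26.98 and 18.7 CPM in the cKO libraries, against 33.6 and 29.7 CPM in the controls. Map3k7 and Map3k14, kinases upstream of NF-kB, had log2 fold changes of −0.36 and −0.62.

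The remaining feedback inhibitors had 15 of 19 negative values and a median of −0.40. Without cKO 2 it was −0.10, without cKO 5 −0.82, without control 6 −0.22 and without control 1 −0.48, and on the marker scale it was 0.50. Zfp36l1, a relative of Zfp36 that also binds AU-rich elements, had 49.3 and 58.1 CPM in the cKO libraries, against 72.3 and 89.2 CPM in the controls, a log2 fold change of −0.66 ± 0.38 (SE). Socs3, an inhibitor of cytokine receptor signalling, had 31.8 and 26.1 CPM in the cKO libraries, against 41.95 and 35.6 CPM in the controls. Tnip2, which encodes a partner of A20, had a log2 fold change of −0.52 with overlapping groups. Both Zfp36l1 and Socs3 had their cKO values under both control values on CPM, and both overlapped on the microglia marker scale.

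Other NF-kB target genes had 12 of 14 negative values and a median of −0.61. Without cKO 2 the median was 0.05, without cKO 5 −1.12, without control 6 −0.24 and without control 1 −0.70, and on the marker scale it was 0.41. Ccl2, a chemokine gene that draws monocytes, had 9.94 and 29.3 CPM in the cKO libraries, against 30.7 and 42.5 CPM in the controls, a log2 fold change of −0.91 ± 0.73 (SE). Plaur, the urokinase receptor gene, had overlapping groups and a log2 fold change of −0.67. Vcam1, an adhesion gene of vessels and other cells, had higher values in both cKO libraries, at 78.8 and 52.7 CPM in the cKO libraries, against 49.5 and 31.1 CPM in the controls, a log2 fold change of 0.62 ± 0.34 (SE).

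Immediate early genes, which like Zfp36 and Nfkbiz are switched on within minutes of a stimulus, had 13 of 14 negative values and a median of −0.72. Of all genes tested, 47.2% had negative values. In edgeR, 2 of the 14 were at an unadjusted p under 0.05, against 0.307% of all genes, and 0 passed the adjusted threshold. Fos had 24.96 and 40.9 CPM in the cKO libraries, against 156 and 70.1 CPM in the controls, Egr1 had 25.2 and 39.1 CPM in the cKO libraries, against 85.5 and 77.1 CPM in the controls, and Junb had 62.6 and 75.6 CPM in the cKO libraries, against 139 and 116 CPM in the controls. Summed, the 14 genes came to 976 and 897 CPM in the cKO libraries, against 1430 and 1158 CPM in the controls. Their median was −0.42 without cKO 2, −0.96 without cKO 5, −0.37 without control 1 and −0.74 without control 6. On the microglia marker scale the median of these genes was 0.13 and the groups of Fos, Egr1 and Junb overlapped. Their part in the values of Zfp36, Nfkbiz and Tnfaip3 was not tested.

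**Figure D4:**
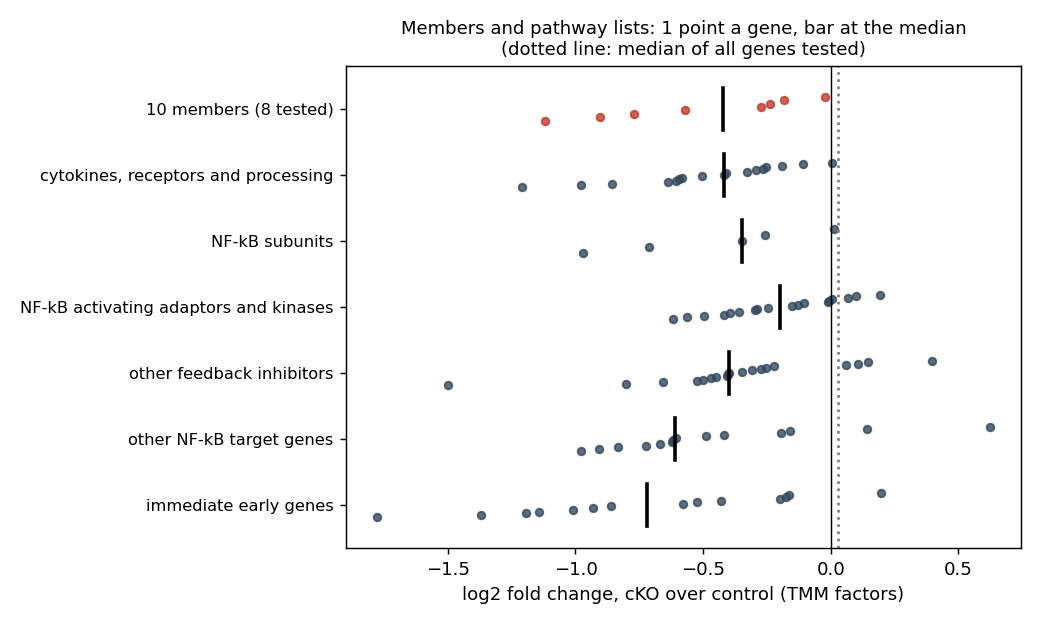
Log2 fold change of cKO over control (x axis) for each tested gene (points) of the members (top row, red) and of 6 pathway lists (rows below), with a bar at each list's median and a dotted line at the median of all genes, 0.03. With TMM factors the medians run from −0.72 for immediate early genes to −0.20 for adaptors and kinases and all 8 members lie left of 0, whereas 4 of the 6 list medians and Il1a, Il1b and Tnf are above 0 without cKO 2, and all 6 medians and 7 members are on the microglia marker scale.

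The nearest pattern to each member among 94 other genes of these lists was found from the distance between their centred log2 CPM values over the 4 libraries, as a description. Il1a was nearest to Tnf and Tnf to Il1a, at a distance of 0.17 on the log2 scale. Il1b was nearest to Tnfaip8l2 at 0.13 and then to Il1a at 0.19. Tnfaip3 was nearest to Icam1, an adhesion molecule gene, at 0.17, and Nfkbia to Btg2, an immediate early gene, at 0.17. The nearest genes to Nfkbiz, Zfp36 and Sigirr were further off, Il6st at 0.33, Nlrc5 at 0.34 and Jun at 0.39. Nearness over 4 libraries says nothing of shared control.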

How the data were processed

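TopHat2 2.0.12, HTSeq 0.6.0, Bowtie2 2.2.3 and build mm9 are named, per the submitters' processing notes, without settings. Gene positions in the deposited tables nevertheless fitted GRCm38 (90.3% identical among 21922 genes matched to GENCODE M21). The authors deposited 4 tables, each with raw read counts per gene for 1 cKO and 1 control library. The deposited normalized values are CPM on the library total, and each deposited fold is a ratio of cKO to control CPM, also given as log2. The deposited p-values belong to an unnamed test, and genes were called by the authors where p was under 0.05 with an absolute log2 change of at least 1. In each pair of libraries, the deposited adjusted p lay below the unadjusted p for 66.6% to 80.0% of genes. A Benjamini-Hochberg adjustment cannot give this, and the deposited adjusted values were not used here. Libraries were grouped by sample title.

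Counts were joined by gene ID, and the 18723 genes with a count in every library entered the analysis. The genotypes were compared with edgeR 4.0.16 (R 4.3.3), two-sided, with TMM factors, a minimum count of 10 in filterByExpr and Benjamini-Hochberg adjustment over 15951 genes at 0.05, which left 2 residual degrees of freedom. Each SE given with an edgeR log2 fold change was worked back from the test, as the absolute log2 fold change divided by the square root of the quasi-likelihood F statistic. An exact permutation of 2 against 2 libraries cannot go below a two-sided p of 0.333. Scaled CPM was divided by each library's median ratio over 22 microglia markers (factors of 0.409 and 1.46 in cKO 2 and cKO 5, and 1.04 and 1.61 in control 1 and control 6). Alternatives were DESeq2 1.42.0, limma 3.58.1 on log2(CPM + 1), RLE factors, library totals, the marker scale, no filter and each library left out. The scripts were tested on simulated data. The members and lists were chosen with earlier results of these data known. The rule named all members, Bach1, Csf1r and up to 3 genes per pathway list, those of smallest unadjusted p among genes averaging 5 CPM or more, while pattern neighbours came from distances of log2 CPM with a prior count of 2. Of the microglial markers in the rule, Csf1r and Cx3cr1 are described and P2ry12 is not. All intervals cover counting error only.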

Additional observations from a re-analysis of the deposited data

How the results depend on the processing

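No gene and no member passed an adjusted p of 0.05 under any alternative run, with 49 genes at an unadjusted p under 0.05 in edgeR, 74 with DESeq2, 54 with limma-trend, 48 with library totals alone, 149 without the filter, and 583, 1784, 40 and 10 without cKO 2, cKO 5, control 1 and control 6. With DESeq2, RLE factors, library totals, limma-trend and no filter, all 8 tested members kept a negative log2 fold change. Scaled on the microglia markers, it was 0.29 for Il1a, 0.073 for Il1b, 0.37 for Tnf, 0.94 for Nfkbia, 0.00 (0.0021) for Nfkbiz, 0.27 for Tnfaip3 and 0.20 for Sigirr, while the median of all genes was 1.15. When each library was left out, the range was −1.67 to 0.56 for Il1a, −2.21 to 0.59 for Il1b, −1.72 to 0.77 for Tnf and −0.54 to 0.032 for Nfkbia, with positive values of Il1a, Il1b and Tnf without cKO 2 or control 6 and of Nfkbia without control 1. The causes were not tested. The value stayed negative for Nfkbiz, Tnfaip3, Zfp36 and Sigirr. Of the 9 listed members, the untested Il6 among them, 5 had both cKO values below both controls on CPM, where 6.57% of all genes tested did. The count was 4 with TMM, RLE or DESeq2 factors (7.64%, 7.44% and 7.44% of all genes) and 0 on the marker scale (1.22%). When each library was left out it was 5 to 8, 8 being the count without cKO 5. Those counts set 1 library against 2, where groups separate more easily, and no share of all genes was computed for them. The count on CPM and its alternatives were chosen after the data were seen. No paired analysis was possible because the genotypes share no replicate number.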

Other observations

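Among pathway list genes named above outside the 10, Nlrp3, Ccl2 and Nlrc5 had both cKO values under both controls on plain CPM and on the microglia marker scale. Of all genes tested, 6.57% did so on plain CPM and 1.22% on the marker scale. The microglia marker Cx3cr1, given above, did so on both scales too, and the part of the knockout driver in its values was not tested. Nlrp3 was at 1.68 and 8.03 CPM in cKO and 8.93 and 13.7 CPM in control, and Ccl2 at 9.94 and 29.3 CPM in cKO and 30.7 and 42.5 CPM in control. Both overlapped on TMM-scaled CPM. Nlrc5, known as a regulator of MHC class I genes, was scarce, at 0.578 and 1.399 CPM in cKO and 2.86 and 2.73 CPM in control, and stood apart on the TMM, RLE and DESeq2 scales too. The log2 fold changes on the marker scale were −0.83, −0.33 and −0.91 for Nlrp3, Ccl2 and Nlrc5, none past the threshold in edgeR. They were singled out after their values were seen. On the marker scale, Il1a and Tnf were higher in both cKO libraries than in both controls, Il1a at 45.4 and 46.6 scaled CPM in cKO and 40.5 and 34.9 in control, and Tnf at 4.66 and 5.72 scaled CPM in cKO and 4.39 and 3.68 in control, where 12.1% of all genes tested did so.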
